A study of Monodelphis domestica and Mus musculus with 2 samples.

Results

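The astrocytes of the opossum primary visual cortex (V1) were described from 1 Stereo-seq section, a spatial method that captures polyadenylated RNA on a patterned chip and assigns it to segmented cells. They are the cells inside the V1 regions that passed the authors' filter, were labelled Astro as subclass and were labelled non-neuronal as class. They numbered 359 of 4806 V1 cells, which came from 80369 segmented cells of the section. The animal was an adult male gray short-tailed opossum (Monodelphis domestica) of 6 months from a breeding colony, for which the labels give no treatment and no genetic change, and the section was 10 µm thick, cut from a block in which coronal slices had been embedded together. A section from 1 adult male C57BL/6J mouse of about postnatal day 40 (P40), with 429 astrocytes among 9127 V1 cells, is used only beside the opossum values. The opossum cells lay in 3 V1 regions of 1 animal, which the labels do not assign to slices and which are not replicates. No test between groups was possible, so values are given with counting error only, and each region is shown.

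Astrocytes take up glutamate and potassium that active neurons release, buffer water and ions through channels at their end-feet on blood vessels, and pass small molecules to each other through gap junctions. They also make cholesterol-carrying lipoproteins for neurons and release proteins that shape synapses. In the rodent cortex they occupy every layer, and their gene expression is known to vary between upper and deep layers.

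The 359 astrocytes made up 7.47% of V1 cells (exact Clopper-Pearson 95% interval 6.74 to 8.25). Region 1 held 129 astrocytes among 1855 cells (6.95%), region 2 held 145 among 1739 (8.34%), and region 3 held 85 among 1212 (7.01%). The share in region 2 lay above the others, and the intervals of the 3 regions overlapped. Per area of the enclosing rectangle there were 173 astrocytes per mm2 in region 1, 188 in region 2 and 216 in region 3. Region 2 had a patch without cells in its upper part, the largest empty circle having a radius of 81.6 µm, against 32.8 and 28.6 µm in regions 1 and 3.

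The median astrocyte had 1180 UMIs (unique molecular identifiers, each standing for 1 captured RNA molecule), with a range from 120 to 3974, and 747 genes. Other V1 cells had a median of 1339 UMIs. The astrocytes of region 3 were the shallowest, with a median of 944 UMIs, against 1210 in region 1 and 1340 in region 2. Summed over all astrocytes, 453998 UMIs were available. A gene's level below is its UMIs per 10000 UMIs of the cells named, with an exact Poisson 95% interval. These intervals and those of shares cover counting error only and leave out differences between cells and between animals.

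**Figure D1:**
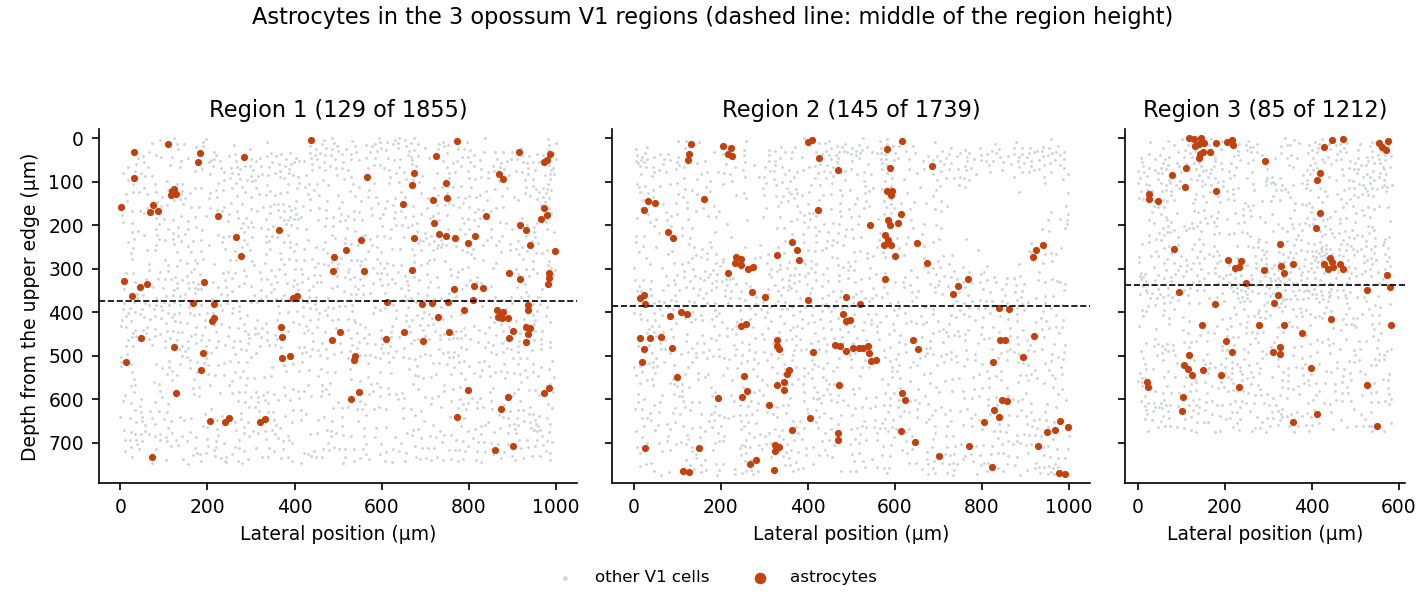
Positions of astrocytes (orange, 359 cells) and other V1 cells (gray) in the 3 opossum V1 regions, with lateral position and depth in µm and a dashed line at the middle of each region's height. Astrocytes lay at every depth, in small groups as well as singly, and region 2 shows the patch without cells.

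The label was checked against the markers SLC1A2 and SLC1A3 (the glutamate transporters GLT-1 and GLAST), AQP4 (the water channel of the end-feet) and GJA1 (connexin 43 of gap junctions). Because the labels were given from the same counts, this is a description and not independent evidence. The 4 markers together had a level of 46.6 (44.6 to 48.6) in astrocytes and 9.13 in all other V1 cells, a ratio of 5.10. Across regions the level ran from 39.8 to 50.9 in astrocytes and from 9.02 to 9.49 in other cells, so the ranges stayed apart.

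SLC1A2 had a level of 30.02 in the astrocytes of region 1, 26.8 in region 2 and 18.7 in region 3, against 4.00, 4.25 and 4.09 in other cells. Its ratio of astrocytes to other cells was 6.42 (5.99 to 6.88), and the lowest of its astrocyte levels was in the shallowest region. GJA1 had 9.79, 8.59 and 9.74 in astrocytes against 1.97, 1.93 and 2.44 in other cells, a ratio of 4.52 (4.04 to 5.05). SLC1A3 had 7.47, 6.04 and 7.51 against 2.00, 1.59 and 2.00, a ratio of 3.74 (3.29 to 4.24). AQP4 had 3.62, 4.45 and 3.87 against 1.05, 1.30 and 0.962, a ratio of 3.56 (3.01 to 4.19). For each of the 4 markers every astrocyte region lay above every region of the other cells.

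At least 1 UMI of SLC1A2 was found in 73.5% of astrocytes (68.7 to 78.0) and in 27.2% of IT_A neurons, the upper-layer intratelencephalic excitatory cells, used as the neurons of comparison. Among excitatory neurons its level was 2.25 in L5PT, 3.18 in IT_A and 5.43 in L6CT cells, so it differed between neuron types. The part of neighboring RNA in these levels was not tested. IT_A cells were deeper in sequencing, with a median of 1365 UMIs. With each cell thinned to 300 UMIs the shares were 41.5% of 349 astrocytes and 9.40% of 1542 IT_A cells, with 10 astrocytes and 52 IT_A cells left out as too shallow. GJA1 was found in 53.5% of astrocytes and 17.7% of IT_A cells, SLC1A3 in 45.4% and 15.1%, and AQP4 in 29.2% and 10.2%. GFAP, the intermediate filament protein of reactive and white-matter astrocytes, was found in 10.3% of astrocytes and 4.89% of IT_A cells. It was found in 11.7% of oligodendrocytes (OD) labelled non-neuronal as class, which also had a median of 1180 UMIs. After thinning the shares of GFAP were 3.72%, 1.56% and 1.33%, the last being 3 of 225 cells, and the intervals of astrocytes and OD overlapped at either depth. Counted per cell, 29 astrocytes had all 4 markers, 89 had 3, 126 had 2, 89 had 1 and 26 had none. Of 1594 IT_A cells, 3 had all 4 and 772 had none.

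A further 133 cells were labelled Astro as subclass but glutamatergic as class, and 3 were labelled GABAergic. Those 133 cells had a marker level of 21.3 (19.0 to 23.8), between the astrocytes and the other cells. None of them had received the subclass label in the first round of classification, in which all neighbors in the reference had to share it. Among the 359 astrocytes 290 were labelled in the first round, 62 in the second and 7 in the third. Non-neuronal OD cells had a marker level of 12.4 (11.1 to 13.7).

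Genes known from other cell types were also detected in the astrocytes. The 9 measured pan-neuronal genes, among them SNAP25, SYT1 and NRGN, had a summed level of 126 in astrocytes and 145 in other cells, a ratio of 0.872 (0.849 to 0.896). Across regions that level was 122 to 132 in astrocytes and 142 to 152 in other cells. No tested pan-neuronal gene (0 of 9) was 2-fold higher in astrocytes and 8 were below a ratio of 1. The 9 measured oligodendrocyte genes had 45.7 in astrocytes and 42.9 in other cells, with MBP (myelin basic protein) at 34.2 and 30.9. Oligodendrocyte precursor genes were scarce in astrocytes and other cells alike. In astrocytes they gave 15 UMIs from 4 measured genes, with OLIG2 and GPR17 at 0. Their level was 0.330 in astrocytes and 0.248 in other cells, a ratio of 1.33 (0.73 to 2.26). Microglial genes gave 45 UMIs from 7 measured genes, with P2RY12 and CTSS at 0, a summed level of 0.991 in astrocytes and 0.633 in other cells and a ratio of 1.57 (1.12 to 2.13). Endothelial and mural genes had 3.50 in astrocytes and 2.06 in other cells, ranging over regions from 2.67 to 4.20 and from 2.00 to 2.26, and CLDN5 of tight junctions had a ratio of 2.11 on 22 UMIs. The measured GABAergic genes had 12.2 and 13.3. Segmented cells can hold 2 cells or parts of cells, no doublet caller was run, and the part of neighboring cells in the levels below was not tested.

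Cells close to an astrocyte carried more of its markers. The 634 cells without an Astro label whose centre lay within 20 µm of an astrocyte centre had a marker level of 11.6 (10.8 to 12.3), and the 3677 cells farther away had 8.47 (8.23 to 8.72), a ratio of 1.36 (1.27 to 1.47). Within 10 µm the level was 20.1 over 36 cells, and beyond 60 µm it was 8.25. Those 36 cells had a median of only 437 UMIs, and their level ran from 13.1 to 31.9 by region. The 9 IT_A cells among them had 1 marker UMI, a level of 3.17 (0.08 to 17.7). In region 1 the near and far levels were 10.2 and 8.61, in region 2 they were 12.9 and 8.16, and in region 3 they were 11.4 and 8.83, near above far each time. Among IT_A neurons alone the levels were 9.63 and 7.03. The near cells were shallower, with a median of 1071 UMIs against 1389. The astrocyte level was 5.50 times that of the far cells.

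**Figure D2:**
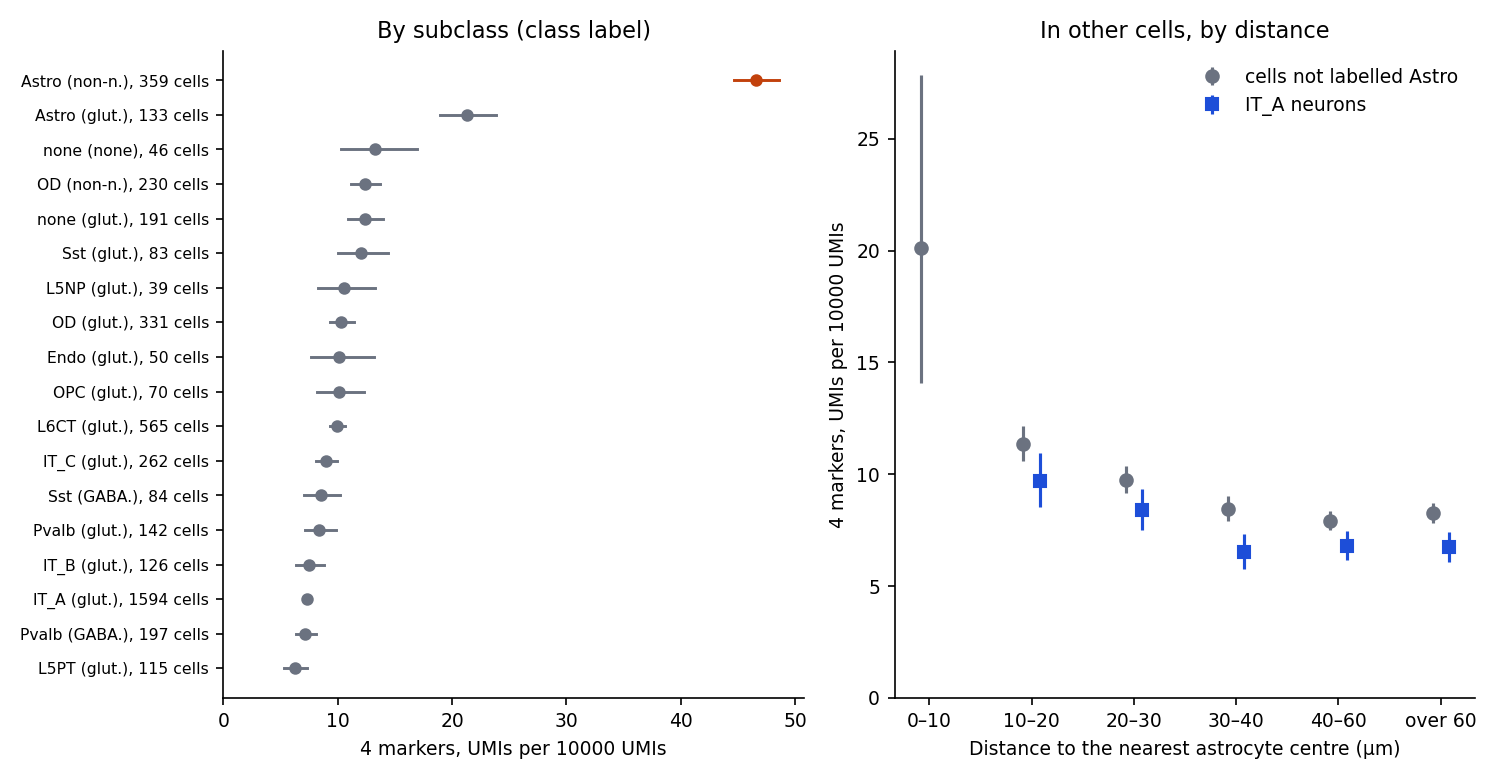
Left, summed level of SLC1A2, SLC1A3, AQP4 and GJA1 in UMIs per 10000 UMIs for each subclass of at least 30 V1 cells, with its class label in brackets. Right, the same level in cells without an Astro label and in IT_A neurons by distance to the nearest astrocyte centre (the nearest bin of IT_A, with 9 cells, is not drawn). Points are summed levels and bars are exact Poisson 95% intervals. The 359 astrocytes stand at 46.6, and other cells run from 20.1 within 10 µm to 8.25 beyond 60 µm.

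Of 5190 genes with at least 20 UMIs in astrocytes, 323 were at least 2-fold higher there than in other V1 cells, which is 6.22% of them. The median ratio over all tested genes was 1.01. Lists of known astrocyte genes held 182 genes, of which 143 were found by symbol in the opossum files and 105 had 20 UMIs. Of those 105 genes, 59 were at least 2-fold higher in astrocytes (56.2%), 8 had a ratio below 1, and the median ratio was 2.28.

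Genes with a symbol and a ratio above 1 in each region were ranked by ratio. Of the 10 highest, all but SOX9 were outside these lists. GLI2, a transcription factor of the Sonic hedgehog pathway, had levels of 1.31, 1.10 and 1.41 in the astrocytes of regions 1 to 3 against 0.104, 0.069 and 0.070 in other cells. Its ratio of 14.8 (10.0 to 21.9) was the highest of these 10, on 56 UMIs. The rule required a ratio above 1 in each region, so agreement between regions is no separate support. The intervals of these 10 genes take no account of their choice as the highest. PARD3B, a cell polarity protein, had 4.09, 2.95 and 1.17 against 0.228, 0.292 and 0.334, a ratio of 11.1 (8.79 to 13.9). MMD2 had 2.73, 1.80 and 0.821 against 0.205, 0.169 and 0.225, a ratio of 10.1 (7.6 to 13.3). Both PARD3B and MMD2 were lowest in the astrocytes of region 3. ARHGAP42, a GTPase-activating protein, had a ratio of 11.4 on 44 UMIs. SOX9, a transcription factor that specifies glia, had 7.5 on 41 UMIs. PREX2, an exchange factor for Rac, had 7.30 on 136 UMIs. The others were PLD1 (phospholipase D1) at 8.56, SH3BP2 at 8.41, DDR2 (a collagen receptor) at 7.78 and RFTN2 at 7.40, each on 24 to 36 UMIs. The ratio of DDR2 rested on region 2, and was 2.97 without that region and 14.4 without region 1. Against the other non-neuronal cells alone, SOX9 had a ratio of 2.8, PREX2 of 3.66, SH3BP2 of 4.19 and GLI2 of 7.11. The markers were also nearer to those cells, with SLC1A2 at 5.13, GJA1 at 2.73, AQP4 at 2.47 and SLC1A3 at 2.36. Against them 40 list genes passed 2-fold in place of 59, whereas over all genes 401 passed in place of 323.

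All 7 tested genes of glutamate and GABA handling were at least 2-fold higher in astrocytes. Beside SLC1A2 and SLC1A3 these included GLUL, glutamine synthetase, with levels of 26.3, 31.8 and 31.8 in the 3 regions against 11.4, 12.8 and 14.1 in other cells. At least 1 UMI of GLUL was found in 88.9% of astrocytes and 83.5% of OD cells, and in 56.4% and 47.1% after thinning. SLC6A11, the GABA transporter GAT-3, had a ratio of 2.78. ABAT, which breaks down GABA, had 2.03, the lowest of the list. The summed level of the list was 73.5 in astrocytes and 22.8 in other cells, a ratio of 3.22 (3.10 to 3.35).

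All 10 tested genes for water, ions and gap junctions also passed 2-fold, with a median ratio of 3.67. The summed ratio over the 12 measured genes was 3.68. Because the UMI limit for testing was set on astrocytes, genes scarce in them fell outside this count. KCNJ16, at 1.19 on 1 UMI, and CLCN2, at 0.911 on 6 UMIs, were measured but not tested, and both were short of 2-fold. SLC4A4, a sodium bicarbonate cotransporter, had 4.91 and MLC1, a membrane protein of the end-feet, had 4.77. KCNJ10, the potassium channel Kir4.1, had 2.14, 2.00 and 1.76 against 0.658, 0.629 and 0.528. The connexins GJB6 and GJB2 had ratios of 3.78 and 4.22, the latter on 26 UMIs. HEPACAM, an adhesion protein that binds MLC1, had 3.26 and ATP1B2 had 2.28.

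Among transcription factors, 6 of 11 tested genes passed 2-fold. HES5, an effector of Notch signalling, had 4.45, 4.15 and 4.34 in astrocytes against 0.697, 0.625 and 0.807 in other cells, a ratio of 6.23 (5.23 to 7.38). TCF7L2 had 4.29, ZBTB20 had 4.13 and ID4 had 4.08. Of the nuclear factors I, NFIA was higher in astrocytes but short of 2-fold, with a ratio of 1.70 on 89 UMIs. NFIB at 1.03 and NFIX at 0.91 stood near the other cells, and ID2 had 0.87.

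Receptors and signalling genes passed 2-fold in 10 of 16 cases. EGFR had 6.26, ADRA1A (an α1 adrenergic receptor) 5.81, BMPR1B 5.81, S1PR1 (a sphingosine phosphate receptor) 4.29, FGFR2 4.22 and EDNRB (the endothelin B receptor) 2.99. The ratio of ADRA1A rested on 22 UMIs and ran from 1.49 in region 2 to 15.3 in region 1. The receptors below 1 were GABBR2, a GABA-B receptor subunit, at 0.69, ADRA1B at 0.65 and GRM5, a metabotropic glutamate receptor, at 0.64, while GRM3 had 2.16. In the metabolism list 7 of 15 passed, led by GLDC of the glycine cleavage system at 6.6 and MAOB (monoamine oxidase B) at 6.06, with ALDH1L1, a folate enzyme used to mark astrocytes, at 3.07. ALDOC, aldolase C, had only 1.21 and LDHA 1.03.

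Of the lipid and cholesterol list 4 of 13 tested genes passed 2-fold. They were ACSBG1, an acyl-CoA synthetase, at 4.58, ABCA1, a cholesterol exporter, at 3.62, APOE, the main apolipoprotein of the brain, at 3.17, and FABP5 at 2.59. The ratio of ABCA1 was 0.84 in region 3, below other cells. Enzymes of cholesterol synthesis stood near the other cells, with HMGCS1 at 1.22, MSMO1 at 1.17 and SQLE at 1.16. APOE had a level of 21.1 (19.8 to 22.5) in astrocytes and 6.66 in other cells, and its ratio was 3.18, 3.14 and 3.24 in the 3 regions.

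In the secreted and matrix list 6 of 10 passed, with the phagocytic receptors MEGF10 at 3.92 and MERTK at 3.89 and the chemokine CXCL14 at 3.69. In the membrane list 7 of 21 passed, led by F3 (tissue factor) at 4.82, LRIG1 at 4.42 and LSAMP at 2.98. The members of that list with high levels in all cells had low ratios, such as GPM6A at 1.21 and CADM3 at 1.07. Of the filament genes, GFAP had a ratio of 2.46 (1.83 to 3.25) on 58 UMIs, with levels of 1.19, 1.5 and 0.938 against 0.453, 0.549 and 0.598, and VIM (vimentin) had 2.60 on 25 UMIs.

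**Figure D3:**
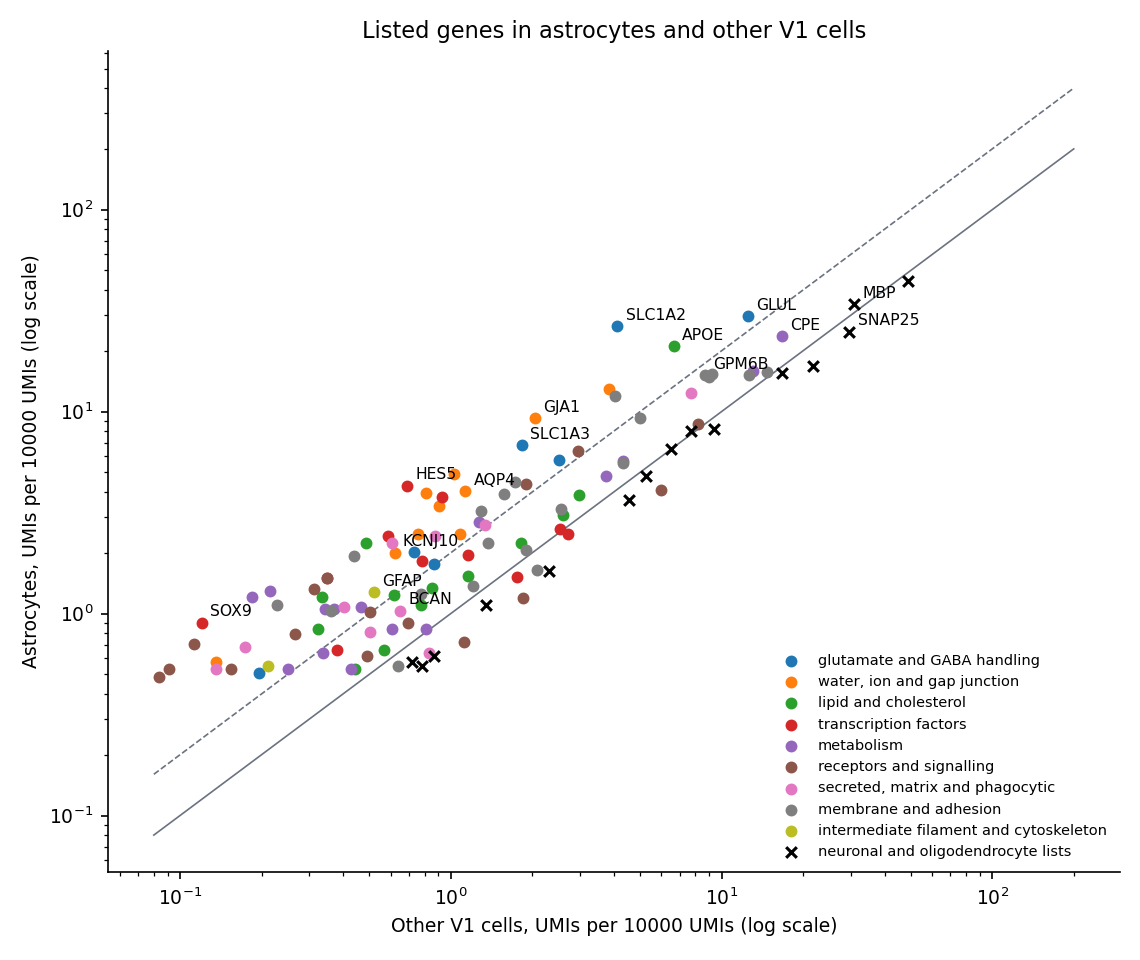
Level of each tested list gene in other V1 cells (x) and astrocytes (y), in UMIs per 10000 UMIs on log scales, colored by list, with neuronal and oligodendrocyte genes as crosses. The solid line marks equal levels and the dashed line 2-fold. Glutamate handling and water and ion genes lie above the dashed line, with SLC1A2 at 26.5 against 4.12, and the crosses lie near the solid line.

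Depth was measured from the upper edge of each region and scaled to the tallest region. The median depth of the astrocytes was 374 µm, with quartiles at 190 and 515 µm. By region the median was 354, 432 and 336 µm. Each region was split at the middle of its height into an upper and a lower side. The upper side held 186 astrocytes (7.62% of its cells) and the lower side 173 (7.32%). Upper and lower counts were 71 and 58 in region 1, 63 and 82 in region 2, and 52 and 33 in region 3, so region 2 went the other way from the rest. In 5 equal depth bins from the top, astrocytes were 7.26%, 7.47%, 8.62%, 8.40% and 5.45% of cells. The lowest bin had the lowest share, with an interval from 4.08 to 7.10, and its share was 3.22%, 7.84% and 4.91% in the 3 regions. In region 3 the top bin held 29 astrocytes, 10.3% of its cells.

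The median distance from an astrocyte to the nearest astrocyte was 21.5 µm, and 25.2, 18.0 and 22.1 µm by region. Between the 230 non-neuronal OD cells it was 18.8 µm, and 21.6, 17.5 and 39.3 µm by region. A further 331 OD cells of glutamatergic class were left out. In 29 astrocytes (8.08%) the nearest lay under 10 µm away, against 3.91% of these OD cells. Such values depend on density, which was 173, 188 and 216 astrocytes per mm2 by region. These OD cells had 104, 155 and 81.1 per mm2.

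Expression on the upper and lower sides was compared within astrocytes, for genes with at least 30 UMIs, counting those at least 1.5-fold apart and in the same direction in all 3 regions. Of 3761 genes 300 were higher on the lower side (7.98%) and 274 on the upper side (7.29%). Of the 206 of these genes that were also at least 2-fold higher in astrocytes than in other cells, 14 were higher below (6.80%) and 18 above (8.74%), shares close to those of all genes. The regions ordered genes alike only weakly by side. Across 842 genes with at least 100 UMIs, Spearman's rank correlation of the lower to upper ratio between pairs of regions was 0.11 to 0.15, against 0.45 to 0.53 for the ratio of astrocytes to other cells, as a description across genes that share libraries. Upper astrocytes had a median of 1074 UMIs and lower ones 1262.

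Among genes with a symbol, the 5 highest below were EML5, RSBN1, RAB26, PI4K2A and ISLR2. Their ratios were 6.69, 6.47, 6.25, 5.36 and 4.82, on 32 to 42 UMIs. Leaving out 1 region moved EML5 to between 3.63 and 12.4 and PI4K2A to between 3.11 and 12.4. After thinning RAB26 had 4 UMIs on each side, and RSBN1 had 0 above and 3 below, too few for a ratio. RAB26 and ISLR2 were also higher below in other cells, at 3.29 and 2.81. Again among genes with a symbol, the 5 highest above were NECTIN3 (lower over upper 0.14), CRH (0.18), NYAP2 (0.18), KCNN2 (0.25) and CACNA1C (0.26). CRH, corticotropin-releasing hormone, is a neuronal gene with 58 UMIs in upper and 12 in lower astrocytes, and its ratio in other cells was 0.21. KCNN2, a calcium-activated potassium channel, had 32 and 9 UMIs in astrocytes and a ratio of 1.21 in other cells. None of these 10 genes was in the astrocyte lists, and only KCNN2 was 2-fold higher in astrocytes.

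Several genes of neurons and oligodendrocytes differed between the sides in astrocytes about as much as in the other cells. Of 12 layer genes of neurons with 30 UMIs in astrocytes, 2 were past 1.5-fold below (16.7%) and 3 above (25%). Of 3 oligodendrocyte genes 2 were past it below. Over all genes the shares were 7.98% below and 7.29% above. MBP had a level of 22.9 in upper and 44.2 in lower astrocytes, a ratio of 1.93 (1.73 to 2.15), and 2.04 in other cells. In the 3 regions the ratio was 1.68, 2.11 and 2.05. The whole oligodendrocyte list had 1.85 in astrocytes and 1.94 in other cells. FEZF2 of deep-layer neurons had 5.36 on 21 UMIs, and 6.65 in other cells. NRGN (neurogranin) had 0.73 and 0.66, and CUX2 of upper-layer neurons had 0.62 and 0.47. Other genes differed from the surrounding cells. GRIK3, a kainate receptor subunit, had 0.84 (0.49 to 1.43) in astrocytes against 5.21 in other cells, and TLE4, a corepressor of deep-layer neurons, had 0.80 against 1.67. Pooled over regions, the GABAergic list had 1.22 (1.03 to 1.46) in astrocytes and 0.90 in other cells. By region it had 1.93, 0.89 and 0.94 in astrocytes, so only region 1 was higher below. SLC32A1, the vesicular GABA transporter, had 2.28 in astrocytes and 1.13 in other cells. The part of neighboring RNA in these values was not tested.

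The astrocyte markers showed no common direction with depth. The 4 markers together had 48.2 in upper and 45.1 in lower astrocytes, a ratio of 0.94 (0.86 to 1.02), while other cells had 1.18. The ratio was 0.66 in region 1, 1.16 in region 2 and 1.28 in region 3, so region 1 went against the rest, and without it the ratio was 1.21. SLC1A2 alone had 0.50, 1.30 and 1.55. Genes of glutamate and GABA handling had 76.6 and 70.7, a ratio of 0.92 (0.86 to 0.99), which became 1.07 without region 1. Water, ion and gap junction genes had 46.1 and 46.2, a ratio of 1.00. GFAP had 27 UMIs above and 31 below.

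The lipid and cholesterol list had a summed level of 46.4 above and 37.3 below, a ratio of 0.80 (0.73 to 0.88) against 0.96 in other cells, and APOE gave 959 of its 1888 UMIs. Without APOE the list had 20.04 above and 20.8 below, a ratio of 1.04 (0.91 to 1.19) and 1.04 in other cells. Of the 12 genes of the whole list with 30 UMIs, 2 were past 1.5-fold above in all regions (16.7%) and 1 below (8.33%). Over all genes the shares were 7.29% above and 7.98% below. APOE had 565 UMIs in upper and 394 in lower astrocytes, levels of 26.4 and 16.4. In region 1 the levels were 23.1 above and 16.02 below, in region 2 they were 27.0 and 16.3, and in region 3 they were 31.9 and 17.5. Every upper level lay above every lower one. The ratio of lower to upper was 0.62 (0.55 to 0.71), against 0.83 in other cells. In the 5 depth bins from the top the level was 28.2, 25.5, 22.9, 16.2 and 14.1, lower at each step down, whereas other cells had 6.81, 7.33, 7.84, 6.09 and 5.62. Under 10 alternative settings the ratio stayed between 0.486 and 0.721. Microglia also make APOE, and over all regions their genes had 29 UMIs in upper and 16 in lower astrocytes. The ratio was 0.49 (0.25 to 0.94), against 1.02 in other cells. By region it was 1.69, 0.21 and 0.32, so region 1 went the other way. Endothelial and mural genes had 0.76 (0.55 to 1.05) against 0.74. Their part in the levels of APOE and TIMP3 was not tested.

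APOE and the other genes in this and the following paragraphs were chosen after their values were seen, as genes with at least 60 UMIs that were at least 2-fold higher in astrocytes, at least 1.5-fold apart between the sides and in the same direction in each region. Of 94 genes with 60 UMIs and 2-fold enrichment, 10 were higher above and 4 below. Over all 1692 genes with 60 UMIs the shares past the same limits were 5.79% above and 5.91% below. Of those 14 genes 8 have a symbol, 4 in each direction.

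Higher in upper astrocytes beside APOE were HES5, TIMP3 and ACSBG1. HES5 had levels of 5.04 above and 3.78 below in region 1, 6.28 and 2.74 in region 2, and 4.42 and 4.25 in region 3, where the sides were almost level. Its ratio was 0.62 (0.46 to 0.83), and 0.83 in other cells. TIMP3, an inhibitor of matrix metalloproteinases, had 3.02 and 1.01, 3.39 and 2.24, and 5.09 and 3.00, a ratio of 0.54 (0.37 to 0.79) against 0.90 in other cells. ACSBG1 had 2.58 and 0.88, 3.01 and 2.49, and 2.43 and 1.5, a ratio of 0.66 (0.44 to 1.00) against 1.2. Without region 2 its ratio was 0.431, and after thinning 0.375. Other settings brought it nearer to 1. It was 0.8 without region 1, 0.728 in cells with at least 500 UMIs, and 0.844 for the bottom against the top of 3 equal depth bins.

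Higher in lower astrocytes were GLIS3, CAPN2, FGFR2 and DDAH1. GLIS3, a Krüppel-like zinc finger transcription factor, had 32 UMIs above and 81 below. Its levels were 2.13 above and 2.65 below in region 1, 0.88 and 4.23 in region 2, and 1.33 and 2.25 in region 3. The ratio was 2.26 (1.48 to 3.52), and 0.82 in other cells. In the 5 depth bins the level was 1.14, 1.43, 1.88, 2.89 and 5.16, against 0.26 to 0.55 in other cells. The size depended on region 2, since the ratio was 1.35 without it, and on region 1, since it was 3.59 without that one. After thinning it was 1.42. CAPN2, a calpain protease, had 1.79 (1.02 to 3.22) on 60 UMIs against 1.09 in other cells. FGFR2 had 1.66 (0.95 to 2.97) and DDAH1, which degrades asymmetric dimethylarginine, had 1.5 (0.99 to 2.31), but in other cells they had 1.67 and 1.90, so neither differed from its surroundings in direction.

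**Figure D4:**
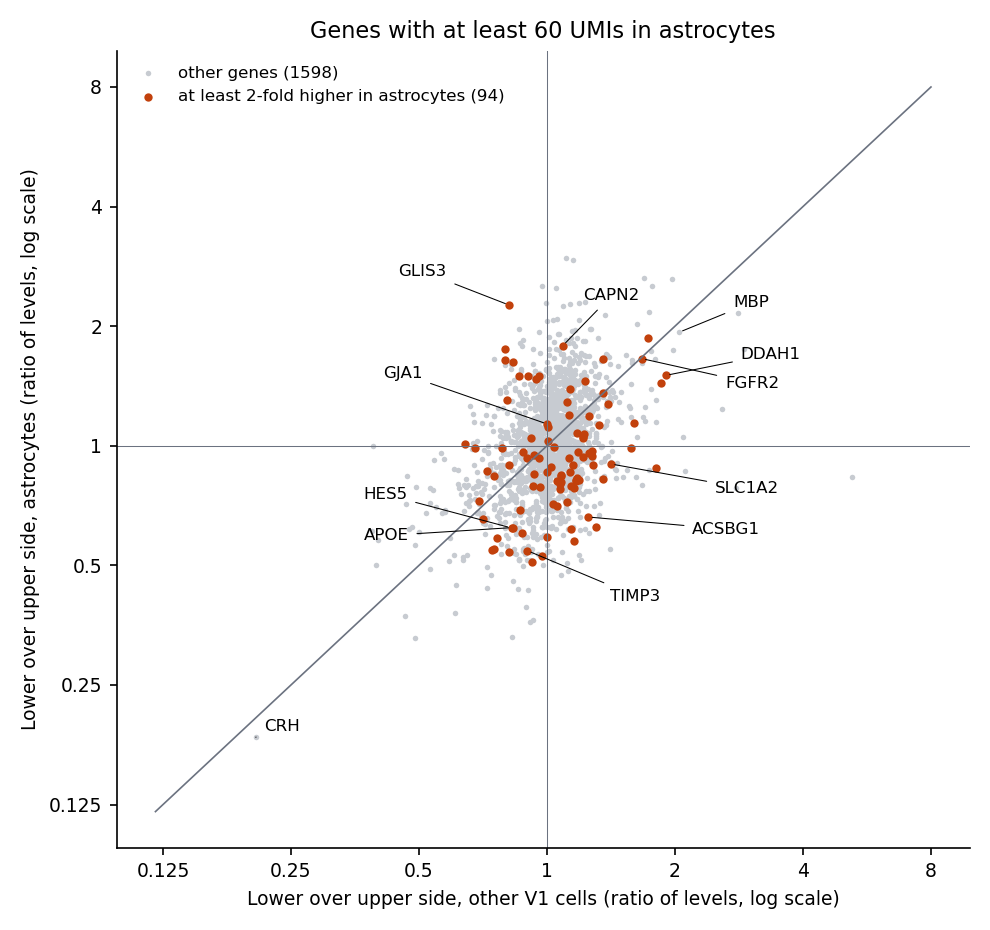
Ratio of the level on the lower side to the upper side in other V1 cells (x) and astrocytes (y), log scales, for the 1692 genes with at least 60 UMIs in astrocytes, of which 94 (orange) were at least 2-fold higher in astrocytes. The diagonal marks equal ratios. MBP and CRH lie near the diagonal, APOE, HES5 and TIMP3 lie below 1 on the y axis, and GLIS3 lies at 2.26 in astrocytes and 0.82 in other cells.

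**Figure D5:**
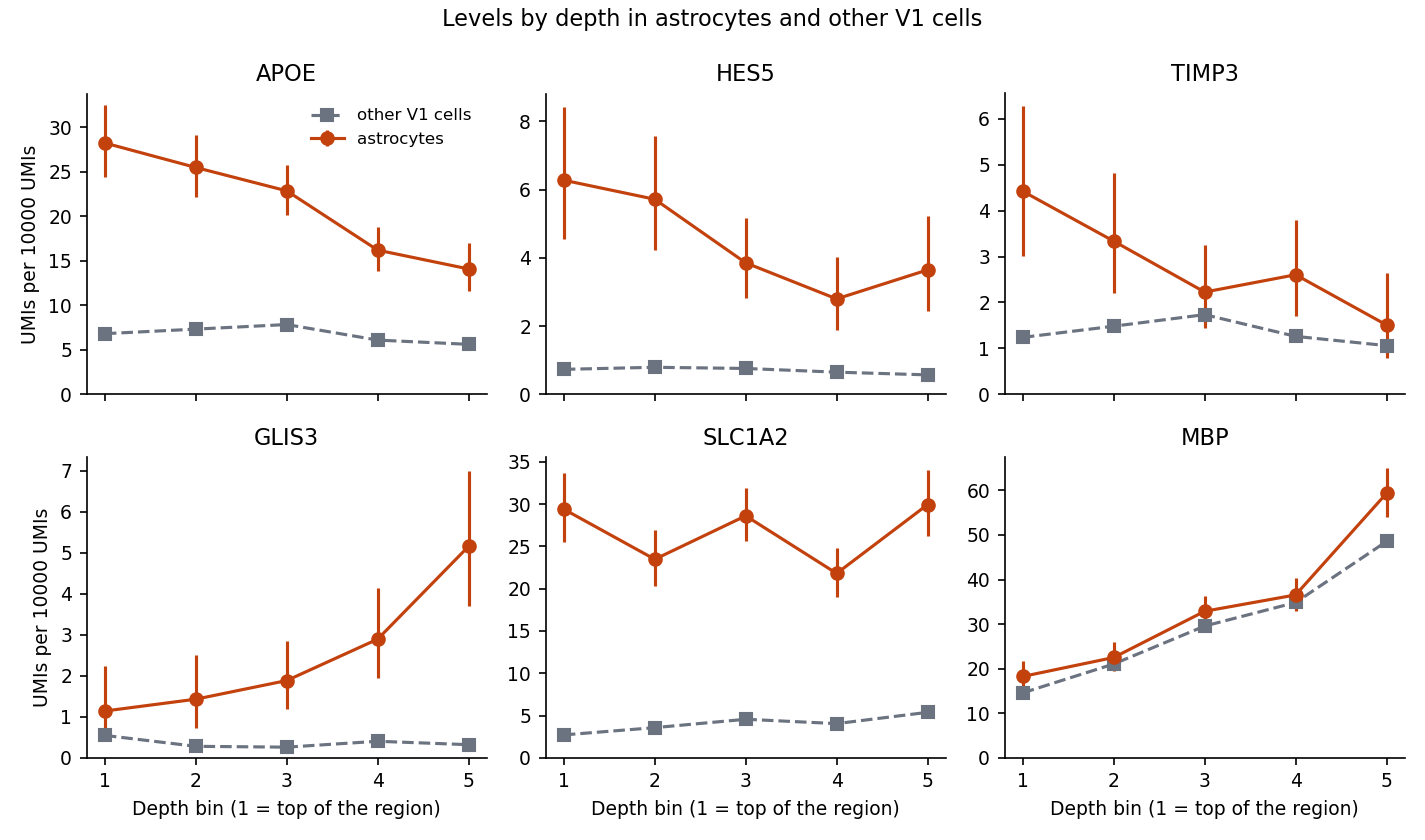
Level of 6 genes in UMIs per 10000 UMIs in 5 equal depth bins, from 1 at the top to 5 at the bottom, in astrocytes (orange, with exact Poisson 95% intervals) and other V1 cells (gray). APOE runs from 28.2 to 14.1 and GLIS3 from 1.14 to 5.16 in astrocytes, SLC1A2 has no steady direction, and MBP is higher toward the bottom in both.

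Among all list genes, 91 had at least 30 UMIs, of which 5 were at least 1.5-fold higher below (5.49%) and 8 above (8.79%) in all regions, shares close to the 7.98% and 7.29% of all genes. Those below were FABP7, a fatty acid binding protein of radial glia and astrocytes, at 1.97 (1.12 to 3.59), IL6ST, the shared receptor of interleukin 6 cytokines, at 2.77 (1.32 to 6.33), NFIX at 1.55, FGFR2 at 1.66 and ALDH1A1 at 1.53. In other cells FABP7 had 1.26, IL6ST 1.10 and NFIX 0.94. Those above included APOE, HES5, TIMP3, ACSBG1, ALDH1L1 at 0.58, CDH10 at 0.55 and CDH20 at 0.56. CDH20 had 0.49 in other cells. Of genes reported to differ between layers in mouse astrocytes, CHRDL1, EOGT, MFGE8 and IL33 have no symbol in the opossum files used here. Of the 4 such genes with 30 UMIs, IGFBP2 was past 1.5-fold with 43 UMIs above and 18 below, a ratio of 0.37 (0.20 to 0.66), and it had 0.46 in other cells.

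Beside the mouse, with 1 animal per species and different ages, genomes and depths, values are set side by side without a test. Of 116 genes at least 2-fold higher in opossum astrocytes that had 20 UMIs in the astrocytes of both sections and a shared symbol, 47 were also at least 2-fold higher in mouse astrocytes (40.5%), against 2.84% of all 2850 genes measured in both. From the mouse side these 47 were 58.0% of 81 genes, beside 116 of all 2850 genes that were 2-fold higher in opossum astrocytes. SLC1A2 had a ratio of 6.42 in opossum and 1.80 in mouse astrocytes, and in the mouse other cells had a level of 11.5 and astrocytes 20.7. PREX2 had 7.30 and 6.75. Some of the 116 genes had at least 60 opossum UMIs, enrichment in each region and a mouse ratio below 1.2. They were PDE7B, ARHGEF10L, FAM168A, TJP1 and DBNDD2, and were chosen after their values were seen. PDE7B, a cAMP phosphodiesterase, had a ratio of 5.13 here and 0.82 in mouse astrocytes, on 24 mouse UMIs. ARHGEF10L had 3.33 and 1.06, on 29 mouse UMIs. Mouse Apoe had 131 UMIs above and 139 below, a lower to upper ratio of 1.10 (0.86 to 1.41), and mouse Glis3 had 14 and 11. The difference between species was not tested.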

How the data were processed

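For 1 section per species the authors used the Stereo-seq Analysis Workflow, mapped the opossum reads to their own genome version with lengthened 3′ gene ends, and deposited UMI counts per gene and segmented cell, without normalization. Their metadata give V1 region, filter, class and subclass, assigned by nearest neighbors in their single-nucleus atlas. The tissue had an RNA integrity number of 7.1 and was permeabilized for 12 min. Of 30613 opossum features 11598 carry a symbol, and others are counted but not named.

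Counts were summed over cells with Python 3.11.15, numpy 2.4.6, scipy 1.17.1 and pandas 2.3.3, and drawn with matplotlib 3.10.9. Positions used 2 spatial units per µm. Depth followed the smallest enclosing rectangle, turned by the positions of IT_A (upper) and L6CT (lower). A ratio with 0 counts in the lower term used 3 counts. V1 cells had at least 102 UMIs and 79 genes, and the sections shared 0 barcodes. The summing was tested on simulated data. Because reads of a cell can come from its neighbors, segmentation affects every level.

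Named genes are all list genes, the 10 highest ratios to other cells (at least 20 UMIs, above 1 in each region) and the 5 highest and 5 lowest ratios of the lower to the upper side (at least 30 UMIs, same direction in each region). A few of them are left out of the text. The cells and lists were chosen with earlier results of these data known. Alternatives were label round, class label, cells with at least 500 UMIs, thinning to 300 UMIs, mean over cells, each region left out, reference cells, thresholds, depth splits and distances.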

Additional observations from a re-analysis of the deposited data

How the results depend on the processing

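The share of astrocytes was 6.03% with first-round labels only and 10.3% with the Astro label of every class. Thinning each cell to 300 UMIs, which leaves fewer UMIs per gene, gave 78 genes higher in astrocytes, of which 28 were list genes, 47 genes higher below, 38 higher above, and a lipid list ratio of 0.703. With at least 10 or 50 UMIs per gene 617 or 111 genes were higher in astrocytes, and at 1.5-fold or 3-fold 659 or 145. With 3 equal depth bins, the top against the bottom one gave 187 genes higher below and 179 above, and ratios of 0.7 for the lipid list, 2.37 for the oligodendrocyte list and 0.878 for the pan-neuronal list. With at least 20 UMIs 469 genes were higher below, and with at least 60 UMIs 100 were higher below and 98 above. With a lower fold limit than 1.5 there were 477 below and 428 above, and at 2-fold 108 and 104. A near limit of 15 µm gave a ratio of 1.47.

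With each region left out, there were 206 to 290 genes higher in astrocytes, the lowest without region 2, lower to upper ratios of 0.803 to 1.21 for the 4 markers, and near to far ratios of 1.23 to 1.47. For glutamate and GABA handling the range was 0.797 without region 2 to 1.07 without region 1, which turned its direction. The other 92 recomputed values of these results stayed within 1.5 times of the count, or within the counting interval or the spread between regions. Of the 320 recomputed ratios of single genes 286 stayed within their counting interval and 34 moved out of it, and none changed direction among those whose interval excluded 1. The causes were not tested.

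No paired analysis was possible because each species has 1 section. With 1 animal nothing here measures the spread between opossums. Labels came from the same counts as the levels, so the genes that set astrocytes apart are partly those that gave the label. Most genes had under 60 UMIs in astrocytes, which leaves wide intervals for the comparison of sides.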
